A study of Homo sapiens with 60 samples.

Results

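HepG2 cells given 500 µg/mL of a water extract of Angelicae Gigantis Radix, the dried root of Angelica gigas, were compared with HepG2 cells given 20 µg/mL of the same extract. HepG2 is an established human hepatocellular carcinoma line that keeps many hepatocyte genes active. Each dose was represented by 3 RNA sequencing libraries, so the comparison rests on 6 of the 60 libraries of the study, chosen by the extract and dose in their labels. The 3 libraries at 100 µg/mL serve to place that dose between the others, and like all 60 libraries they entered the fit from which the spread was estimated. The study covered 6 herbal water extracts at 3 doses each, a vehicle and wortmannin, with 24 h of exposure throughout. Each of these 20 groups had 3 libraries. The extracts other than angelica that are used below are Paeoniae Radix (peony), Glycyrrhizae Radix (licorice) and Poria Cocos (Poria), also at 500 and 20 µg/mL. All groups are of the same unmodified line, and the vehicle cells received DMSO, at 0.1% by the sample labels and 2% by the series description. Whether the extract cultures held DMSO is not stated. The labels carry a set number, whose meaning is not given. It is the same for the angelica and peony libraries and differs from that of licorice, Poria and vehicle. Nothing in the labels ties the 3 libraries of a dose to separate cultures. The p-values of the main fit therefore rest on the spread between libraries within groups, pooled over all 20 groups, which may be technical.

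Total counts ran from 24.2 M to 33.4 M at 500 µg/mL and from 26.2 M to 28.3 M at 20 µg/mL. Levels are given as CPM, counts per M counts of the library, and 3 counts in a library equal 0.0899 to 0.124 CPM. All 8 defining hepatocyte markers, ALB, AFP, APOA1, APOB, TF, TTR, SERPINA1 and FGB, were detected, and none passed edgeR's test between the doses (2 at an unadjusted p of 0.05, and 1 call by DESeq2). Of 12 blood cell markers, PTPRC, CD3E, MS4A1 and HBB were at 0 in all 6 libraries. COL1A2, DCN and POSTN of the 11 fibroblast and stellate markers were at 0 too, as were KDR, TEK and EMCN of the 7 endothelial ones. The share of counts from mitochondrial genes was 9.53% ± 0.598 (SD, n = 3) at 500 µg/mL and 9.07% ± 0.528 (SD, n = 3) at 20 µg/mL, a difference with a two-sided exact permutation p of 0.5, where 3 against 3 cannot go below 0.1.

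Several regulators that act in liver cells frame the genes described here. The aryl hydrocarbon receptor (AHR) is a ligand-activated transcription factor that switches on CYP1A1 and other enzymes of foreign compound metabolism, many plant compounds among its ligands, whereas NRF2 responds to electrophiles and oxidants and PXR and CAR to drugs and steroids. Bone morphogenetic proteins (BMPs) signal through SMAD proteins to the ID genes, to the feedback inhibitor SMAD7 and, in hepatocytes, to HAMP, which encodes the iron hormone hepcidin. Metallothioneins are small cysteine-rich proteins that bind zinc and copper, and their genes follow the metal-sensing factor MTF1, while SREBP2 drives the genes of cholesterol synthesis when sterol falls.

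The bases just upstream of the start are shown for 5 genes past the threshold that hold the motif named for them. Other genes past the threshold, such as ID1, ID3 and LSS, lack the motif of their group. The stretches are from RefSeq on GRCh38.p14, each 5′ to 3′ on the strand of its gene and 250 bases long. Capitals mark the letters of the core motif of the factor named for each gene: GCGTG for AHR in CYP1A1, at chr15:74725529-74725778 on the minus strand, GGCGCC for SMAD proteins in HAMP, at chr19:35282278-35282527 on the plus strand, TGCNCNC for MTF1 in MT2A, at chr16:56608334-56608583 on the plus strand, and in MT1X, at chr16:56682220-56682469 on the plus strand, and TCACNCCA for SREBP in MVK, at chr12:109573544-109573793 on the plus strand.
CYP1A1: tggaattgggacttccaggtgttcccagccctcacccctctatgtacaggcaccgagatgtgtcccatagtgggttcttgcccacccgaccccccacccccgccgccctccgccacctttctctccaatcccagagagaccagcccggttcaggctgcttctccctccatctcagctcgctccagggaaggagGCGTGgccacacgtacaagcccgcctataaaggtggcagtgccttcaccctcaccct
HAMP: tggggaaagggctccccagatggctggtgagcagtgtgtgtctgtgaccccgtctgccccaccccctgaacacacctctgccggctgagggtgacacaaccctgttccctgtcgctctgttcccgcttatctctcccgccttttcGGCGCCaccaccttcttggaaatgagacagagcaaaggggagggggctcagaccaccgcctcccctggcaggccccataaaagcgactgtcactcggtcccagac
MT2A: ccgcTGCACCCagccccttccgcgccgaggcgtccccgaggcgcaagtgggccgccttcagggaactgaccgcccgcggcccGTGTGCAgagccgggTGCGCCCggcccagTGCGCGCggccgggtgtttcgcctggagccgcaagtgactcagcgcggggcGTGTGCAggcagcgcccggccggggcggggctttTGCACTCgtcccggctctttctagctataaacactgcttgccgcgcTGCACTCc
MT1X: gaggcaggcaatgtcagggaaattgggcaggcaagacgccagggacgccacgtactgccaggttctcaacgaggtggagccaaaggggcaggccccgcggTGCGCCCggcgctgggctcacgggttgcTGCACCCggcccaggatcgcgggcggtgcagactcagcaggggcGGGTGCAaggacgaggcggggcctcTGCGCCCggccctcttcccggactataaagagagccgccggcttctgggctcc
MVK: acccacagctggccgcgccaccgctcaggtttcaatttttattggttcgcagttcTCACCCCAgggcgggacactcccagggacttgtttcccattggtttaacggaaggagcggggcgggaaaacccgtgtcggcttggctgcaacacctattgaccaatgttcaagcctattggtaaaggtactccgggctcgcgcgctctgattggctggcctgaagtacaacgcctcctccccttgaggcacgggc
The start used is the one in that table, which can lie inside the full extent of the gene given below, and some genes have several windows. Both strands were searched, and the motifs do not overlap one another in the stretches shown. The GCGTG of CYP1A1 begins 57 bases before the start and the GGCGCC of HAMP begins 105 bases before it. MT2A holds 7 matches of TGCNCNC in the stretch shown, MT1X holds 4, and the TCACCCCA of MVK begins 195 bases before the start. Among all 35116 promoter windows of the table, which run from 250 bases before to 50 after a start, GCGTG was found in 36.5%, GGCGCC in 19.2%, TGCNCNC in 55.9% and TCACNCCA in 3.95%. For windows of the genes tested these shares were 47.6%, 28.2%, 62.2% and 3.45%. As many TGCNCNC matches as in the full MT2A window, 8, were found in 25 windows, or 0.0712%, and as many as in MT1X in 1033, or 2.94%. GGCGCC was searched after the expression values were seen. Of the 9 windows of BMP-SMAD genes that fell, those of HAMP and TGFBI held it, or 22.2%. Those of ID1, ID2, ID3, SMAD7 and CCN2 did not. Among windows of all genes that fell the share was 34.4%. A match describes letters only, and no binding was measured.

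At 500 against 20 µg/mL, 196 of the 16093 genes tested passed an adjusted p of 0.05 in edgeR's quasi-likelihood test, or 1.22%. Of these, 86 rose (0.534%) and 110 fell (0.684%). The changes were mostly small. Only 10 of the 196 genes changed by at least 2-fold and 24 by at least 1.5-fold. The median size of a change among the 196 was 0.26 on the log2 scale, and the median log2 change over all genes tested was 0.00108. At an unadjusted p of 0.05, 1690 genes passed. Among the 196, 183 are protein-coding genes. The plot of change against level shows CYP1A1 far above and HAMP far below the other genes that passed. All 3 libraries at 500 µg/mL lay above all 3 at 20 µg/mL for 84 of the 86 rises and below them for 106 of the 110 falls. Over all genes tested, 6.05% had such a separation upward and 8.05% downward. The count of 196 fell to 112 without library 3 and 126 without library 2 at 20 µg/mL, to 122 without library 2 and 124 without library 3 at 500 µg/mL, and to 47 when only the libraries of both doses entered the fit.

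**Figure D1:**
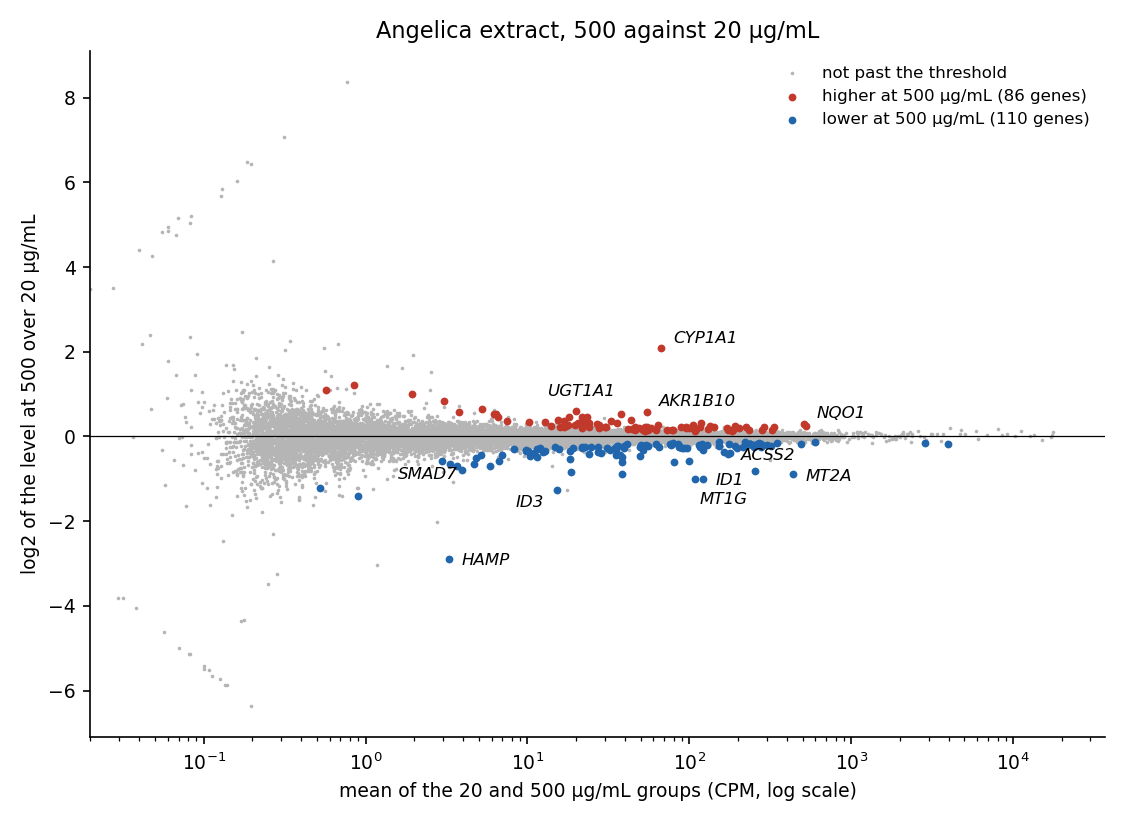
Each point is 1 of the 16093 genes tested, placed by the mean of the 20 and 500 µg/mL group levels in CPM (log axis) and by the fitted log2 of the level at 500 over 20 µg/mL, with red for the 86 genes that rose, blue for the 110 that fell and grey for the rest. CYP1A1 stands at 2.10 and HAMP at -2.88, and most coloured points lie close to the zero line.

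CYP1A1, a monooxygenase and the classical AHR target, rose more than any other of the 196 genes. Its 3 libraries read 24.5, 26.4 and 25.2 CPM at 20 µg/mL, 48.5, 46.7 and 45.9 CPM at 100 µg/mL and 114, 108 and 101 CPM at 500 µg/mL. No library of a higher dose came near one of a lower dose. The rise from 20 to 500 µg/mL was 4.28-fold, a log2 change of 2.10 ± 0.07 (SE, n = 3 per group; edgeR adjusted p = 1.66e-28). Vehicle libraries averaged 12.8 ± 1.07 CPM (SD, n = 3). The gene lies on the minus strand of chromosome 15 from 74719542 to 74725610 on GRCh38. In RNA from whole cultures, more cells that express a gene and more RNA per cell cannot be told apart, here and below.

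Among 11 tested AHR targets of 16 listed, 3 rose, 1 fell and the median log2 change was 0.30, beside 0.534% of all genes tested that rose and 0.684% that fell. ALDH3A1, an aldehyde dehydrogenase, read 2.01, 2.16 and 2.44 CPM at 20 µg/mL and 4.17, 4.21 and 3.40 CPM at 500 µg/mL, a log2 change of 0.85 ± 0.15 (SE; edgeR adjusted p = 4.03e-04). The 100 µg/mL libraries, at 3.09, 3.28 and 2.93 CPM, lay between both groups without touching either. NQO1, a quinone reductase that also answers to NRF2, rose by 0.30 ± 0.04 (log2, SE; edgeR adjusted p = 1.46e-05), from 445, 455 and 490 CPM to 573, 574 and 547 CPM. For NQO1 the 100 µg/mL libraries, at 469, 479 and 461 CPM, stayed among those at 20 µg/mL. The member that fell was NFE2L2, the gene of NRF2 itself, with a log2 change of -0.19 ± 0.04 (SE; edgeR adjusted p = 0.00234), from 186, 194 and 185 CPM to 169, 160.5 and 163 CPM.

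The other AHR targets did not pass. CYP1A2, the neighbour of CYP1A1 that is expressed in adult liver, read 0.114, 0 and 0.0382 CPM at 20 µg/mL and 0.270, 0.330 and 0.283 CPM at 500 µg/mL. All libraries at 500 µg/mL were above those at 20 µg/mL and above the level of 3 counts, but those at 20 µg/mL were at or below that level (edgeR adjusted p = 0.105). CYP1B1, a relative of CYP1A1, read 0.0354 to 0.115 CPM at 20 µg/mL and 0.0600 to 0.364 CPM at 500 µg/mL, with overlap. AHRR and TIPARP, both feedback repressors of the receptor, had log2 changes of 0.05 ± 0.30 and -0.04 ± 0.06 (SE; edgeR adjusted p = 0.984 and 0.884).

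Among 13 tested PXR and CAR targets of 18 listed, 5 rose, none fell and the median log2 change was 0.11, beside 0.534% of all genes tested that rose. UGT1A1, the enzyme that conjugates bilirubin, is shown first in the group: 16.6, 15.6 and 15.4 CPM at 20 µg/mL, 18.6, 19.1 and 18.7 CPM at 100 µg/mL and 23.9, 24.7 and 23.7 CPM at 500 µg/mL. Each dose stood clear of the one below it, and the log2 change from 20 to 500 µg/mL was 0.61 ± 0.06 (SE; edgeR adjusted p = 2.46e-09). UGT1A1 lies on the plus strand of chromosome 2 from 233760248 to 233773299. The glutathione transferases GSTA1 and GSTA2, near-identical neighbours between which reads can be split, both rose. GSTA1 read 36.2, 35.4 and 41.7 CPM at 20 µg/mL and 47.7, 49.7 and 49.7 CPM at 500 µg/mL (0.39 ± 0.07, log2 and SE; edgeR adjusted p = 5.64e-04). GSTA2 read 14.7, 14.9 and 16.5 CPM at 20 µg/mL, 14.6, 15.2 and 17.0 CPM at 100 µg/mL and 21.1, 21.0 and 20.7 CPM at 500 µg/mL (0.46 ± 0.08; edgeR adjusted p = 3.66e-04). For GSTA2 the libraries at 100 µg/mL overlapped those at 20 µg/mL. TSKU, a secreted leucine-rich repeat protein, and ABCC3, an efflux pump for conjugates, rose by 0.22 and 0.19 on the log2 scale. CYP3A4, the best known PXR target, read 0.304, 0.318 and 0.496 CPM at 20 µg/mL and 0.180, 0.537 and 0.364 CPM at 500 µg/mL, with overlap and an edgeR adjusted p of 0.978. Without library 3 at 20 µg/mL, 3 members passed, and TSKU did not (edgeR adjusted p = 0.0763), and 3 also passed without library 1 at 500 µg/mL and with only the libraries of both doses in the fit.

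Of 30 tested NRF2 targets, 9 rose and none fell, beside 0.534% of all genes tested that rose. Whatever the size, 26 were higher at 500 µg/mL, with a median log2 change of 0.10. AKR1B10, an aldo-keto reductase on the plus strand of chromosome 7 from 134527592 to 134541408, read 44.9, 43.1 and 44.0 CPM at 20 µg/mL, 48.2, 47.9 and 48.9 CPM at 100 µg/mL and 69.7, 60.2 and 64.8 CPM at 500 µg/mL. The doses did not overlap, and the log2 change was 0.57 ± 0.06 (SE; edgeR adjusted p = 1.56e-09). GCLM, the modifier subunit of the enzyme that starts glutathione synthesis, rose from 32.5, 33.2 and 29.7 CPM to 41.0, 37.8 and 39.3 CPM (0.32 ± 0.05, log2 and SE; edgeR adjusted p = 1.05e-04). The catalytic subunit GCLC had a log2 change of 0.13 and did not pass (edgeR adjusted p = 0.052). The remaining members that rose were PIR (0.30), SRXN1, which repairs peroxiredoxins (0.27), GSR, which recycles glutathione (0.24), the autophagy receptor SQSTM1 (0.23), thioredoxin reductase TXNRD1 (0.19) and ABCC3 (0.19), each given as a log2 change. HMOX1, the heme oxygenase, and SLC7A11, the cystine importer, had log2 changes of 0.06 and 0.01 and did not pass. The letters TGACNNNGC of the antioxidant response element were found in 4 of the 9 promoter windows of NRF2 targets that rose, in 24.1% of those of all tested NRF2 targets and in 13.3% of all windows. For windows of all genes tested the share was 14.7%. The 9 windows belong to 6 of the genes that rose. Those with a match were of GCLM, PIR and TXNRD1, the last in each of its windows. With only the libraries of both doses in the fit, 3 of the 9 calls were made.

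HAMP fell more than any other of the 196 genes. Its libraries read 4.98, 5.66 and 6.80 CPM at 20 µg/mL, 4.34, 3.32 and 2.90 CPM at 100 µg/mL and 0.780, 0.785 and 0.768 CPM at 500 µg/mL. The 3 doses were in order without overlap, and the 500 µg/mL libraries stood well above the level of 3 counts. The fall from 20 to 500 µg/mL was 7.38-fold, a log2 change of -2.88 ± 0.21 (SE, n = 3 per group; edgeR adjusted p = 3.55e-14). Vehicle libraries averaged 7.12 ± 0.134 CPM (SD, n = 3). HAMP lies on the plus strand of chromosome 19 from 35280716 to 35285143.

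ID1, ID2 and ID3, which encode dominant-negative helix-loop-helix proteins and are direct BMP-SMAD targets, fell. ID3, on the minus strand of chromosome 1 from 23557918 to 23559794, read 21.1, 20.2 and 23.3 CPM at 20 µg/mL, 18.2, 18.6 and 18.7 CPM at 100 µg/mL and 9.77, 9.21 and 7.52 CPM at 500 µg/mL (-1.26 ± 0.08, log2 and SE; edgeR adjusted p = 5.77e-16). ID1, on the plus strand of chromosome 20 from 31605283 to 31606515, read 144, 160.4 and 187 CPM at 20 µg/mL, 135, 138 and 143 CPM at 100 µg/mL and 83.2, 83.9 and 74.7 CPM at 500 µg/mL (-1.01 ± 0.12; edgeR adjusted p = 8.86e-08). In both genes the 500 µg/mL libraries lay far below the rest, and the libraries at 100 µg/mL lay just below those at 20 µg/mL. ID2 read 94.1, 91.0 and 107 CPM at 20 µg/mL, 90.1, 82.8 and 79.6 CPM at 100 µg/mL and 65.1, 62.7 and 62.3 CPM at 500 µg/mL (-0.61 ± 0.08; edgeR adjusted p = 1.90e-06). SMAD7, the inhibitor that closes the feedback loop, read 7.33, 7.04 and 7.48 CPM at 20 µg/mL, 7.09, 7.29 and 6.91 CPM at 100 µg/mL and 4.23, 4.34 and 4.81 CPM at 500 µg/mL (-0.70 ± 0.09; edgeR adjusted p = 9.20e-07). Its level at 100 µg/mL overlapped that at 20 µg/mL, and 6.02% of its log2 change was present at 100 µg/mL.

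Of 14 tested BMP-SMAD and TGF beta targets of 16 listed, 7 fell, none rose and the median log2 change was -0.24, beside 0.684% of all genes tested that fell. CCN2, a matricellular protein also known as a YAP target, had a log2 change of -0.37 and lost its call without library 3 at 20 µg/mL (edgeR adjusted p = 0.0648). TGFBI, a matrix protein, had a log2 change of -0.14. SKIL, a target of TGF beta, had a log2 change of -0.16 and did not pass (edgeR adjusted p = 0.53). Genes outside the list that are tied to this pathway also fell and were singled out after their values were seen. LDLRAD4, an inhibitor of TGF beta signalling, read 4.86, 4.42 and 4.47 CPM at 20 µg/mL and 3.06, 2.40 and 2.87 CPM at 500 µg/mL (-0.70 ± 0.11; edgeR adjusted p = 2.96e-05). FST, which binds activins and BMPs, read 57.4, 58.2 and 58.1 CPM at 20 µg/mL, 49.3, 46.3 and 45.9 CPM at 100 µg/mL and 43.0, 41.4 and 40.5 CPM at 500 µg/mL (-0.46 ± 0.07; edgeR adjusted p = 2.48e-05). FURIN, a protease that matures many secreted factors, fell by 0.41 on the log2 scale. Among iron genes, 2 of 15 tested fell, HAMP and SLC40A1, the iron exporter that hepcidin degrades (-0.17 ± 0.04; edgeR adjusted p = 0.0261). TFRC, TFR2, FTH1 and FTL, for iron uptake, sensing and storage, did not pass.

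**Figure D2:**
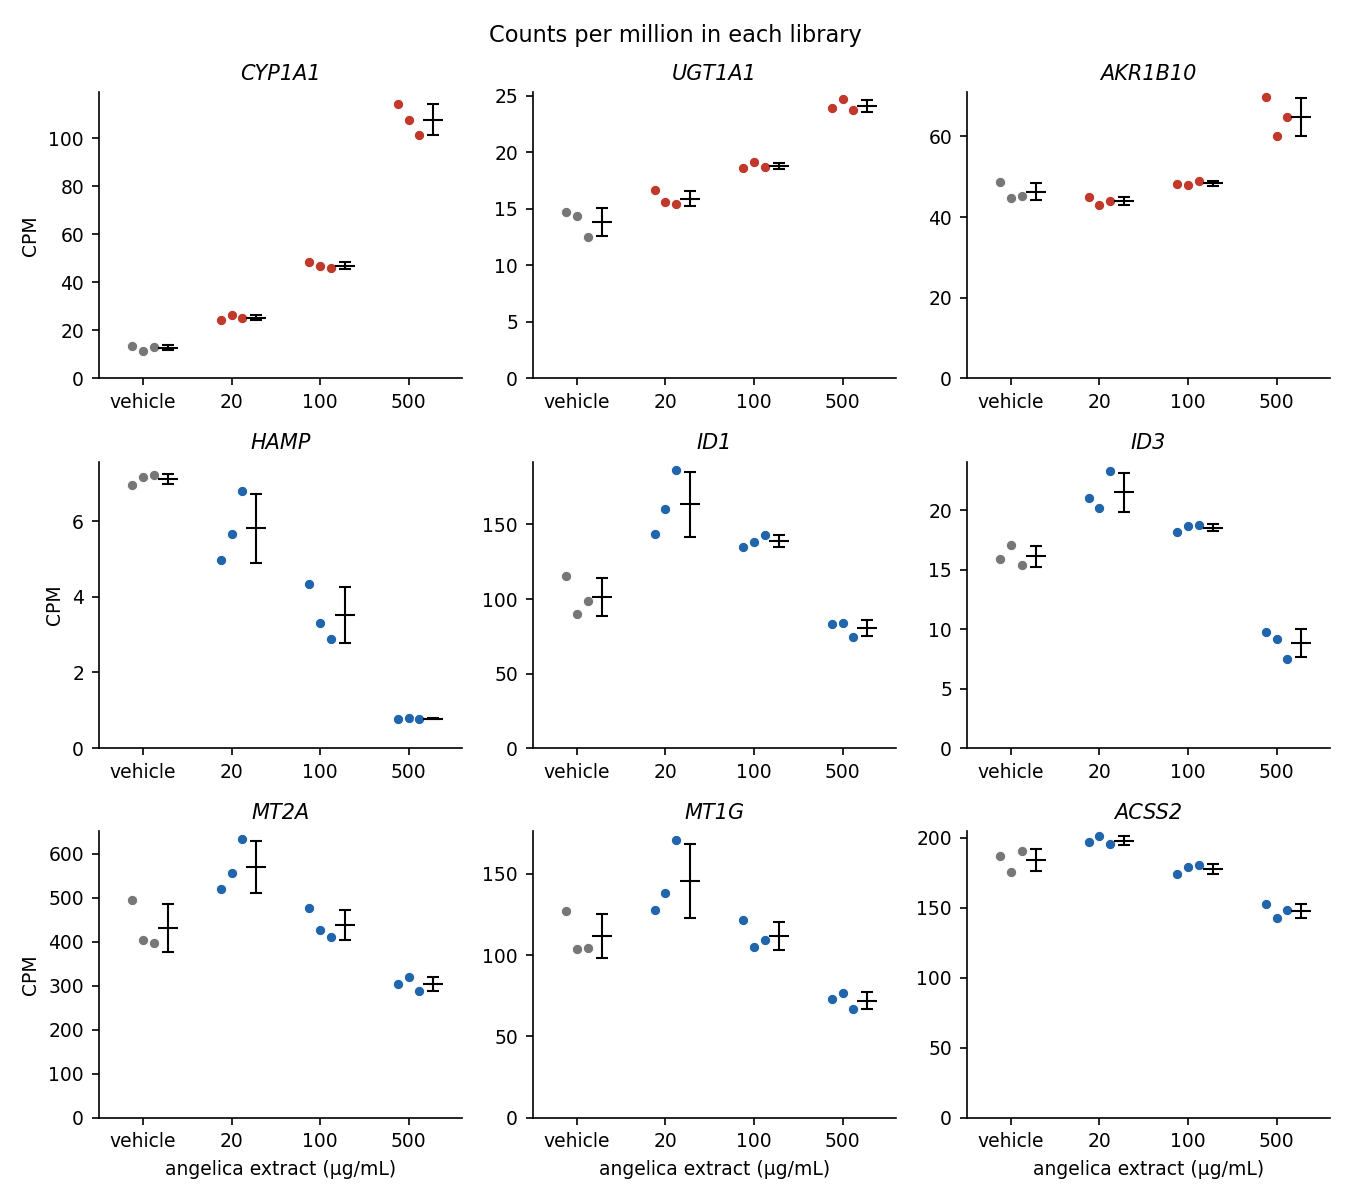
CPM (linear axes from 0) in each library with vehicle (grey) and with 20, 100 and 500 µg/mL angelica extract, for 3 genes that rose (red) and 6 that fell (blue) from 20 to 500 µg/mL, where dots are libraries and the bar beside them is the mean ± SD of 3. CYP1A1 climbs from 25.4 to 108 CPM while HAMP falls from 5.81 to 0.777 CPM, and for ID1, ID3, MT2A and MT1G the mean at 20 µg/mL is above that of vehicle. For these genes the means at 20 µg/mL peony and licorice, not drawn, are above vehicle too, and with Poria only that of ID1 is.

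Of 9 tested metallothionein and zinc response genes of 10 listed, 7 fell, beside 0.684% of all genes tested. None rose, and the median log2 change was -0.81. MT2A, the most widely expressed metallothionein, on the plus strand of chromosome 16 from 56608199 to 56609497, read 519.8, 557 and 634 CPM at 20 µg/mL, 478, 427 and 412 CPM at 100 µg/mL and 304, 321 and 289 CPM at 500 µg/mL. The doses were in order without overlap, and the log2 change was -0.89 ± 0.13 (SE; edgeR adjusted p = 3.84e-06). MT1G read 128, 138 and 171 CPM at 20 µg/mL, 122, 105 and 109 CPM at 100 µg/mL and 72.9, 76.6 and 66.7 CPM at 500 µg/mL (-1.0 ± 0.13; edgeR adjusted p = 3.71e-07). MT1X, which shares its neighbourhood on chromosome 16, read 41.8, 44.5 and 51.9 CPM at 20 µg/mL and 30.6, 32.3 and 27.8 CPM at 500 µg/mL (-0.60 ± 0.09; edgeR adjusted p = 2.96e-05). In all these genes library 3 was the highest at 20 µg/mL. Without it, the log2 changes were -0.81 for MT2A, -0.87 for MT1G and -0.50 for MT1X, and 7 members of the list again passed. MT1F (-0.89), MT1E (-0.81) and MT1M (-1.41) also fell. The MT1 genes are close copies, so their counts are not independent of each other. SLC30A1, the zinc exporter that MTF1 also drives, read 94.9, 96.8 and 94.5 CPM at 20 µg/mL and 80.4, 78.5 and 81.6 CPM at 500 µg/mL (-0.24 ± 0.04; edgeR adjusted p = 3.37e-05). The importer SLC39A10, which MTF1 represses, had a log2 change of 0.27 and did not pass (edgeR adjusted p = 0.155), nor did MT1A at -0.53 (edgeR adjusted p = 0.147).

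Cholesterol synthesis showed many small falls. Of 25 tested members of 26 listed, 14 fell and none rose, beside 0.684% of all genes tested that fell. Whatever the size, 24 were lower at 500 µg/mL, and the median log2 change was -0.16. LSS, the cyclase that forms lanosterol, read 299, 306 and 302 CPM at 20 µg/mL, 279, 278 and 288 CPM at 100 µg/mL and 254, 256 and 248 CPM at 500 µg/mL. Each dose lay clear of the one below, for a log2 change of -0.25 ± 0.03 (SE; edgeR adjusted p = 5.15e-07). MVK, mevalonate kinase, read 87.5, 94.9 and 99.4 CPM at 20 µg/mL and 78.3, 82.1 and 74.0 CPM at 500 µg/mL (-0.25 ± 0.05; edgeR adjusted p = 0.00151). MVD (-0.28), TM7SF2 (-0.27), SC5D (-0.22) and IDI1 (-0.18) fell as well, in log2 units. The number of calls in this list was 1 with only the libraries of both doses in the fit and 6 without library 3 at 20 µg/mL, in which MVK was highest and without which TM7SF2 missed the threshold (edgeR adjusted p = 0.0506). It was 6 without library 2 at 20 µg/mL, and 9 and 5 without libraries 2 and 3 at 500 µg/mL. TCACNCCA was found in 2 of the 18 promoter windows of the members that fell, those of MVK and MSMO1.

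In fatty acid and triglyceride synthesis 5 of 21 tested genes fell, beside 0.684% of all genes tested. None rose, and the median log2 change was -0.10. ACSS2, which makes cytosolic acetyl-CoA from acetate, read 197, 202 and 196 CPM at 20 µg/mL, 174, 179 and 180.5 CPM at 100 µg/mL and 153, 143 and 148 CPM at 500 µg/mL. These groups did not overlap, and the log2 change was -0.41 ± 0.04 (SE; edgeR adjusted p = 4.91e-10). The desaturases FADS2 (-0.23), FADS1 (-0.18) and SCD (-0.15) and the phosphatidate phosphatase LPIN1 (-0.20) were the other members that fell, in log2 units. FASN, ACACA and the other 14 tested members did not pass. The number of falls was 1 with only the libraries of both doses in the fit, 2 without library 1 or 2 at 20 µg/mL or library 2 at 500 µg/mL, and 3 without library 3 at 500 µg/mL. FADS1 and SCD lost their calls in 6 and 7 of 13 alternatives, and ACSS2 in 0.

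**Figure D3:**
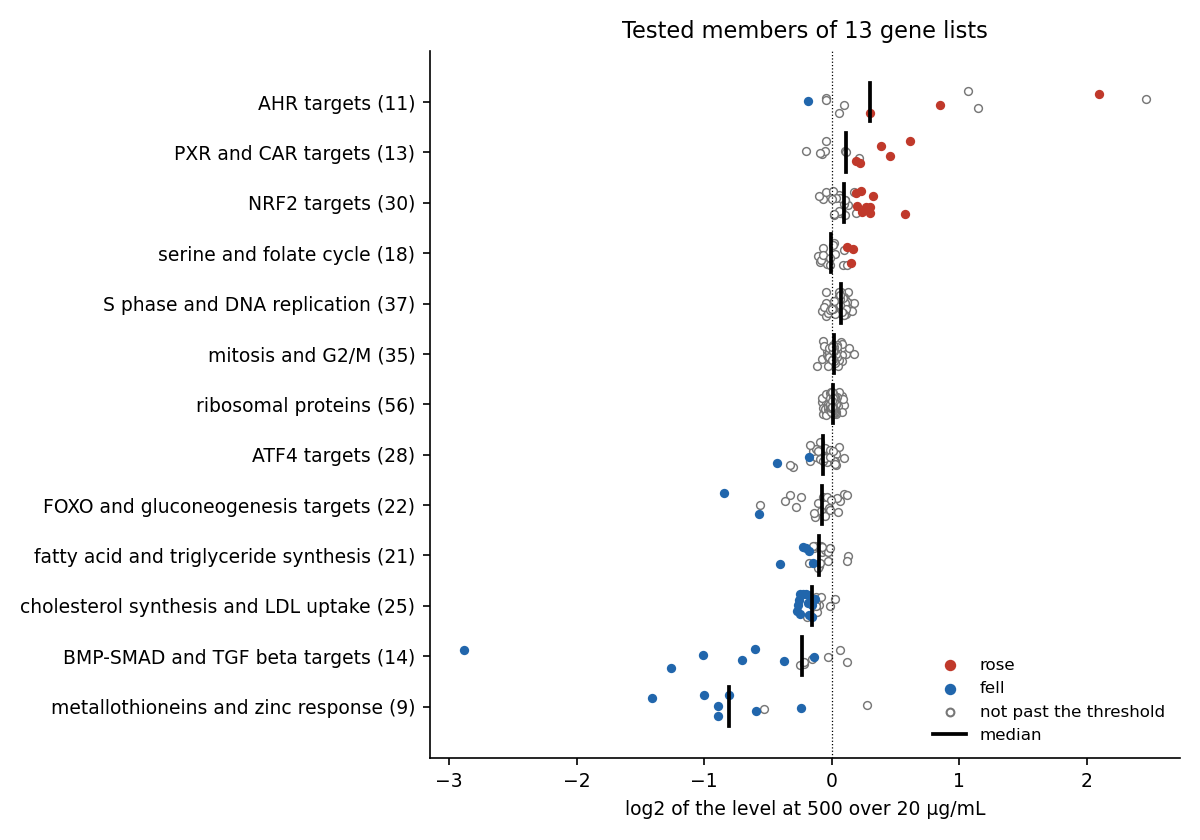
Fitted log2 of the level at 500 over 20 µg/mL for each tested member of 13 gene lists, with the number tested in brackets, red for members that rose, blue for members that fell, open circles for those not past the threshold and a bar at the median of the list. The metallothionein list has the lowest median, -0.81, and the cell cycle and ribosomal protein lists hold no coloured point.

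Smaller groups of calls touched FOXO, glucocorticoid, Wnt and ATF4 targets, to be read beside the 0.684% of all genes tested that fell. DEPP1, a FOXO target, read 22.5, 24.5 and 24.4 CPM at 20 µg/mL, 16.4, 15.9 and 20.7 CPM at 100 µg/mL and 13.8, 13.3 and 12.4 CPM at 500 µg/mL (-0.84 ± 0.10, log2 and SE; edgeR adjusted p = 1.59e-07), against 12.8 ± 1.58 CPM (SD, n = 3) in vehicle. PIK3IP1, an inhibitor of phosphoinositide 3-kinase, was the other of 22 FOXO and gluconeogenesis genes that fell (-0.57 ± 0.15; edgeR adjusted p = 0.0291). IGFBP1, the insulin-repressed binding protein of IGFs, read 372, 371 and 381 CPM at 20 µg/mL and 276, 238 and 241 CPM at 500 µg/mL. Its libraries did not overlap, yet it missed the threshold (-0.56 ± 0.17; edgeR adjusted p = 0.082), as did G6PC1 (-0.28) and PCK1 (0.12), which carry out gluconeogenesis. SGK1, a kinase induced by glucocorticoids, fell by 0.39 on the log2 scale. The other 2 glucocorticoid receptor targets that fell of 12 tested were MT2A and MT1X. NOTUM and NKD1, feedback inhibitors of Wnt signalling, were the 2 of 16 Wnt targets that fell (-0.32 and -0.18), and NOTUM lost its call without library 3 at 20 µg/mL (edgeR adjusted p = 0.0776). ATF4, the factor of the amino acid and stress response, and JDP2 fell (-0.18 and -0.43) among 28 tested ATF4 targets, both calls being lost without library 3 at 20 µg/mL (edgeR adjusted p = 0.371 and 0.230).

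MBL2, the mannose-binding lectin that liver secretes, had the smallest adjusted p among rises after CYP1A1. It read 32.7, 30.5 and 29.7 CPM at 20 µg/mL, 34.7, 37.2 and 34.7 CPM at 100 µg/mL and 46.1, 44.5 and 43.7 CPM at 500 µg/mL (0.54 ± 0.05; edgeR adjusted p = 6.13e-11), with no overlap between doses. Other named rises were MRAS, a small GTPase (0.45), the efflux pump ABCC4 (0.46), ACTA1 (0.54), AGAP5, a member of a family of near-identical copies (0.65), and the non-coding LINC02015 and LINC00511 (0.53 and 0.39), in log2 units. ABCC4 and AGAP5 lost their calls without library 3 at 20 µg/mL (edgeR adjusted p = 0.171 and 0.071). The actin-binding genes TPM1 and TAGLN rose by 0.22 and 0.36. In liver identity, HNF4A rose (0.15) and CEBPA fell (-0.28), and neither call held without library 3 at 20 µg/mL (edgeR adjusted p = 0.254 and 0.313). Of the folate and methionine cycle, MTHFD1 (0.12), MAT1A (0.15) and MTHFD1L (0.17) rose among 18 tested genes, beside 0.534% of all genes tested. MTHFD1 and MTHFD1L did not pass without library 3 at 20 µg/mL (edgeR adjusted p = 0.175 and 0.315). PDGFRB, a receptor kinase counted among the stellate markers, fell from 8.21, 7.60 and 8.29 CPM to 5.49, 5.54 and 4.89 CPM (-0.58 ± 0.09; edgeR adjusted p = 6.98e-05). FXYD1, a regulator of the sodium pump (-0.80), and the pseudogene NAIPP2 (-0.66) fell as well, the call of NAIPP2 being lost without library 3 at 20 µg/mL (edgeR adjusted p = 0.115).

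Of the 196 genes, 124 belonged to none of the 44 lists. Those named in this paragraph were singled out after their values were seen. Rises included GPX2, a glutathione peroxidase, from 459, 486 and 493 CPM to 575, 584 and 548 CPM (0.26 ± 0.05, log2 and SE; edgeR adjusted p = 0.00111). The efflux pump ABCG2 (0.24), the aldehyde dehydrogenases ALDH1A1 (0.22) and ALDH1B1 (0.20), UGDH, which supplies the sugar for glucuronidation (0.22), and AKR1D1, a bile acid reductase (0.21), rose too. Nucleolar proteins of ribosome assembly, WDR46 (0.21), NAT10 (0.18), PDCD11 (0.17), RBM28 (0.16) and NOLC1 (0.15), rose. In the ribosome biogenesis list 1 of 32 tested genes passed, POLR1B (0.14), beside 0.534% of all genes tested that rose. It did not pass without library 3 at 20 µg/mL (edgeR adjusted p = 0.366). Whatever the size, 28 of the 32 were higher at 500 µg/mL, with a median log2 change of 0.08. At an unadjusted p of 0.05, edgeR gave 10 higher and 0 lower in that list. HKDC1, a hexokinase relative, read 28.2, 28.8 and 29.02 CPM at 20 µg/mL, 33.3, 32.9 and 33.3 CPM at 100 µg/mL and 37.7, 36.1 and 36.5 CPM at 500 µg/mL (0.37 ± 0.05; edgeR adjusted p = 2.85e-06). The groups at the 3 doses did not overlap. SEMA3B, a secreted semaphorin, was among the falls with the smallest adjusted p, from 109.9, 116 and 131 CPM to 84.5, 82.6 and 70.8 CPM (-0.57 ± 0.06; edgeR adjusted p = 1.56e-09). MYCN (-0.52), YPEL3 (-0.50), DLK1 (-0.39), IGFBP2 (-0.38), BTG1 (-0.36) and FOXO4 (-0.30) also fell, in log2 units.

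Many processes gave no call between the doses. No gene passed in edgeR's test among 37 of S phase, 35 of mitosis, 25 ER chaperones, 19 heat shock genes, 32 of hypoxia and glycolysis, 27 p53 targets, 18 interferon targets, 56 ribosomal protein genes, 31 proteasome subunits and 13 mitochondrially encoded genes. Their median log2 changes lay between -0.06 for p53 targets and 0.07 for S phase. At an unadjusted p of 0.05, edgeR gave 12 higher and 0 lower in S phase, 0 higher and 6 lower among p53 targets, 2 higher and 4 lower in hypoxia and glycolysis, and 3 higher and 0 lower among proteasome subunits. It gave 2 interferon targets, 2 heat shock genes and 2 mitotic genes, and 0 in the remaining lists. DESeq2 called 1 gene each in S phase, hypoxia and glycolysis, and heat shock, and 0 in the others. A gene that did not pass is not shown to be unchanged. ALB, the main plasma protein, had a log2 change of -0.08, CYP7A1, which starts bile acid synthesis, one of 0.14, TXNIP, a glucose-responsive gene, one of -0.01, and EGR1, an immediate early gene, one of 0.23. DKK1, a Wnt antagonist, had a log2 change of -0.21, and it too did not pass (edgeR adjusted p = 0.165). INSIG1, which holds SREBP in the endoplasmic reticulum, had too few counts to be tested.

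The mean at 100 µg/mL did not enter the contrast that chose the 196 genes, although its libraries shared in the spread estimate, the scaling and the filter. The mean at 100 µg/mL lay between the means at 20 and 500 µg/mL for 188 of them, or 95.9%, as against 40% of all genes tested, most of which have little distance between both ends. For rises the number was 84 of 86 and for falls 104 of 110. Of the exceptions, 5 genes that fell were higher at 100 µg/mL than at either end, SCD, HMGCS1, CHKA, DGKK and IPO9-AS1, and 3 were lower than at either end, PIR, CLDN2 and FOXO4. The median share of the log2 change already present at 100 µg/mL was 41.7%, which was 45% for rises and 39.6% for falls. Genes differed in this share. CYP1A1 had 42.3%, MT2A 42.8%, LSS 42.9% and DEPP1 52.5% of their log2 change at 100 µg/mL. HAMP had 25.6%, ID1 23.4%, AKR1B10 23% and ID3 17%. Small shares were found for SMAD7 (6.02%), NQO1 (5.44%) and GSTA2 (3.16%), and SCD, higher at 100 than at 20 µg/mL, had -7.27%. Large ones were 71.7% for PDGFRB, 75% for SGK1 and 98.7% for MTHFD1L, and FOXO4, lower at 100 than at 500 µg/mL, had 112%. These shares are descriptions, since their spread over libraries was not tested.

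**Figure D4:**
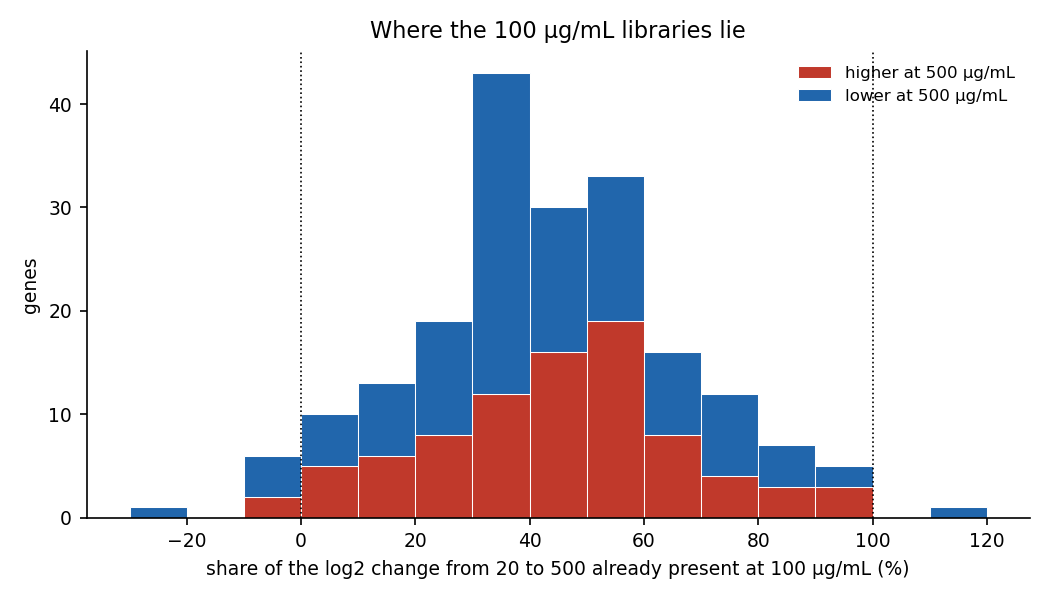
Number of genes (vertical axis) by the share of the log2 change from 20 to 500 µg/mL that was already present at 100 µg/mL (horizontal axis, percent, in steps of 10), for genes that rose (red) stacked with genes that fell (blue), where dotted lines mark the 20 µg/mL level at 0 and the 500 µg/mL level at 100. Of the 196 genes, 188 lie between the lines, around a median of 41.7%.

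Changes from 20 to 500 µg/mL with 3 other extracts, which share no library with angelica, were set beside those above. Peony carries the same set number as angelica, whereas licorice and Poria do not. The change differed between angelica and peony for 149 genes, or 0.926% of those tested, with 0.522% higher and 0.404% lower with angelica (edgeR, test of the difference of changes). This count was 25 with only the compared libraries in the fit. It was 64, 93 and 90 without peony library 3 or 2 at 500 µg/mL or 2 at 20 µg/mL, and 86, 85 and 76 without angelica library 1 or 3 at 500 µg/mL or 2 at 20 µg/mL. Between angelica and licorice it differed for 1220 genes, or 7.58%, with 4.10% higher and 3.48% lower, and between angelica and Poria for 4595, or 28.6%, with 13.4% higher and 15.1% lower. Of the 196 genes called with angelica, 71 were also called in the same direction with peony, which is 36.2% of the angelica and 12.7% of the 561 peony calls. Peony calls made up 3.49% of genes tested, 1.78% higher and 1.70% lower. With licorice 133 were shared, 67.9% of the angelica and 3.88% of the 3428 licorice calls, which were 21.3% of genes tested, 11% higher and 10.3% lower. With Poria 124 were shared, 63.3% of the angelica and 1.77% of the 6995 Poria calls, which were 43.5% of genes tested, 22.3% higher and 21.2% lower. Opposite directions were called for 4, 12 and 28 of the 196 genes in peony, licorice and Poria. The share of the angelica calls was higher with licorice than with Poria, although Poria had more calls. All these shares are given as descriptions.

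CYP1A1 rose with each of the 4 extracts, by 2.10 ± 0.07 with angelica, 1.66 with peony, 5.16 with licorice and 0.93 with Poria (log2). The angelica rise was larger than that of peony (edgeR adjusted p of the difference = 0.029) and of Poria (2.02e-12) and smaller than that of licorice (5.44e-29). NRF2 targets separated angelica from licorice and Poria, where 29 and 27 of the 30 tested rose with medians of 0.59 and 0.66. Of all genes tested, 11% and 22.3% rose with these extracts. With peony 7 of the 30 rose and none fell, with a median of 0.05, beside 1.78% of all genes tested that rose. The change with angelica was higher than with peony for 1 of the 30 and lower for 1, beside 0.522% and 0.404% of all genes tested. The change with angelica was lower than with licorice for 26 of the 30 and higher for none, and lower than with Poria for 25 and higher for 1. Among all genes tested it was lower than with licorice for 3.48% and lower than with Poria for 15.1%. AKR1B10 had log2 changes of 2.18 with licorice and 2.63 with Poria against 0.57 with angelica. GSTA1 fell with peony (-0.35), where GSTA2 had a log2 change of -0.26 that did not pass (edgeR adjusted p = 0.0865), and both fell with Poria (-0.85 and -1.11). The difference from angelica passed for both genes and both extracts, with the largest edgeR adjusted p at 2.38e-04.

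For HAMP the log2 change was -3.77 with peony and -3.01 with Poria, and neither difference from angelica passed (edgeR adjusted p = 0.42 and 0.85). With licorice HAMP moved the other way, by 0.92, a difference that passed (edgeR adjusted p = 7.87e-16). ID3 fell further with peony, by 2.14 on the log2 scale, and the difference of 0.87 ± 0.13 (SE) passed (edgeR adjusted p = 4.45e-05). For ID1, ID2 and SMAD7 the differences between angelica and peony did not pass. No metallothionein or zinc response gene passed the edgeR test of a difference between angelica and peony (4 at an unadjusted p of 0.05, and 1 call by DESeq2), and the list's median was -1.08 with peony. With Poria 6 of the 9 fell and 2 rose, beside 21.2% and 22.3% of all genes tested, with a median of -0.61. The change with angelica was higher for 3 and lower for 2, beside 13.4% and 15.1% of all genes tested. MT2A rose with Poria, by 0.70 against -0.89 with angelica (edgeR adjusted p of the difference = 3.98e-10). MT1F and MT1G fell further with Poria than with angelica, with log2 changes of -2.32 and -1.71 (edgeR adjusted p of the difference = 1.01e-08 and 0.00523). Of 25 tested cholesterol synthesis genes, 8 fell with peony, 23 with licorice and 20 with Poria, beside 1.70%, 10.3% and 21.2% of all genes tested. For fatty acid and triglyceride synthesis the falls were 6, 11 and 14 of 21. No member of either list passed edgeR's test of a difference between angelica and peony. At an unadjusted p of 0.05, 1 cholesterol gene was higher and 4 lower with angelica, and 0 and 2 fatty acid genes.

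ATF4 targets differed between the extracts of the same set. With peony 20 of 28 tested rose, beside 1.78% of all genes tested, and with angelica none did. The change was lower with angelica for 18 of the 28, beside 0.404% of all genes tested, and higher for none. ASNS, asparagine synthetase, read 49.7 and 45.2 CPM on average at 20 and 500 µg/mL angelica and 54.6 and 94.0 CPM at 20 and 500 µg/mL peony, a difference of changes of -0.89 ± 0.06 (log2, SE; edgeR adjusted p = 4.40e-14). Mitotic genes set angelica apart from Poria, where 35 of 35 tested fell with a median of -0.44, beside 21.2% of all genes tested. The change with angelica was higher for 33 of them, beside 13.4% of all genes tested, and lower for none.

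**Figure D5:**
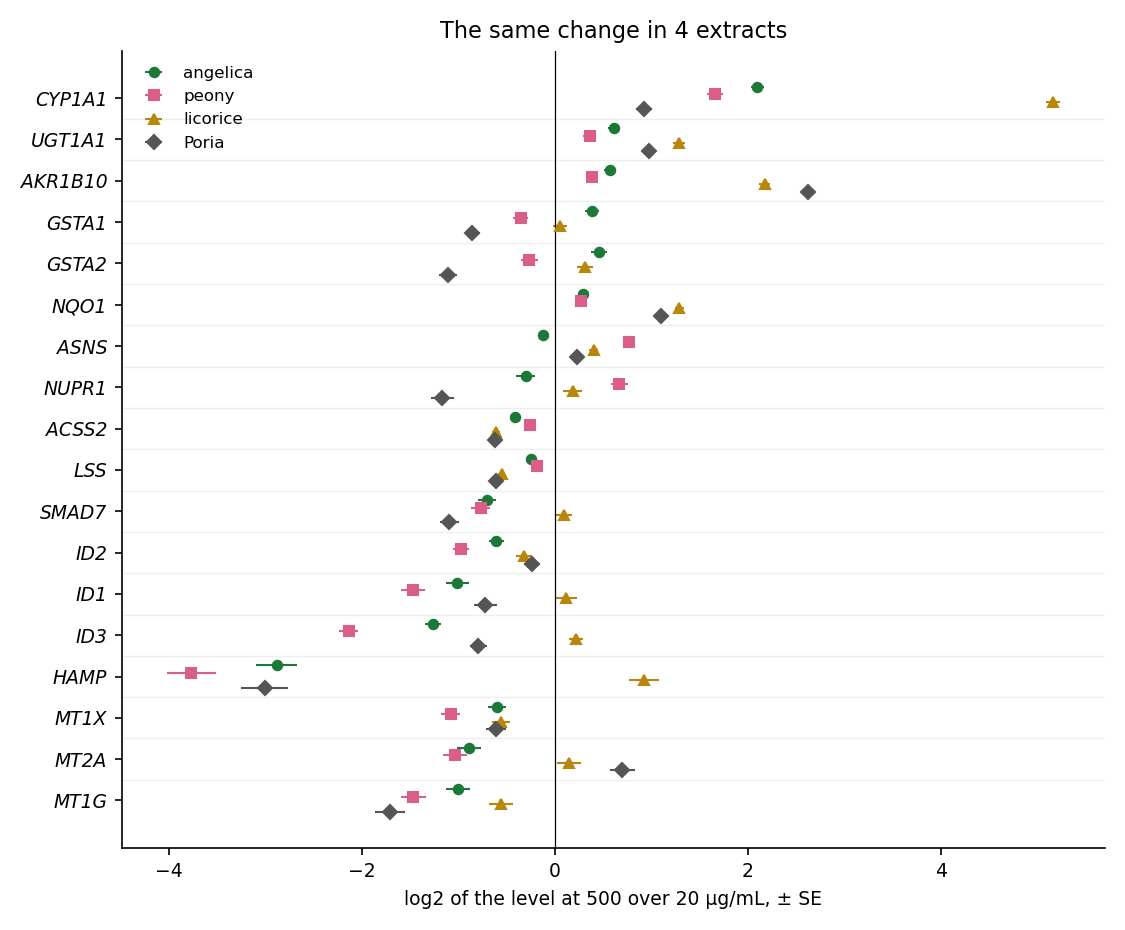
Fitted log2 of the level at 500 over 20 µg/mL, with bars of ± 1 SE, for 18 genes in angelica, peony, licorice and Poria libraries, which share no library. For HAMP the angelica, peony and Poria points lie at -2.88, -3.77 and -3.01 and the licorice point at 0.92, and for GSTA1 and GSTA2 the angelica point is the highest of the 4.

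Levels against vehicle used the same angelica libraries as above, and the set number, and any DMSO, cannot be told apart from the extract there. At 500 µg/mL, 3045 genes, 18.9%, passed against vehicle, 9.51% above and 9.41% below it. At 20 µg/mL 3914 genes, 24.3%, passed, 12.1% above and 12.2% below. The count at 20 µg/mL was 1831 without library 3 of that dose, 2557 without vehicle library 3 and 2143 with only the compared libraries, and that at 500 µg/mL was 1776 without vehicle library 3, so these counts do not order the doses. CYP1A1 and HAMP lay beyond vehicle at 500 µg/mL, by 3.09 and -3.17 on the log2 scale. ID1, ID2 and ID3 were above vehicle at 20 µg/mL, by 0.69, 0.41 and 0.42 (largest edgeR adjusted p = 1.97e-04). At 500 µg/mL ID3 was below vehicle by 0.85 (edgeR adjusted p = 5.60e-10), and ID1 and ID2 had log2 differences of -0.32 and -0.20 that did not pass (edgeR adjusted p = 0.0563 and 0.0899). Of the 9 metallothionein and zinc response genes, 3 were above vehicle and 0 below at 20 µg/mL, and 1 was above and 7 below at 500 µg/mL. MT2A was above vehicle at 20 µg/mL by 0.40 and below it at 500 µg/mL by 0.49 (edgeR adjusted p = 0.0138 and 0.00392), while MT1F and MT1X did not pass at 20 µg/mL (0.12 and 0.08; edgeR adjusted p = 0.386 and 0.562). Among 25 cholesterol synthesis genes, 10 were above vehicle and 2 below at 20 µg/mL, and 0 above and 9 below at 500 µg/mL. DEPP1 was above vehicle at 20 µg/mL by 0.90 and near it at 500 µg/mL, by 0.06. IGFBP1 was above vehicle at both doses, by 1.53 at 20 µg/mL and 0.97 at 500 µg/mL (edgeR adjusted p = 2.78e-08 and 5.30e-05). Means at 20 µg/mL of other extracts also lay away from vehicle. With peony, licorice and Poria, ID1 averaged 146, 144 and 114 CPM against 101 CPM in vehicle. DEPP1 averaged 25.5, 17.4 and 17.6 CPM against 12.8 CPM, and IGFBP1 373, 346 and 258 CPM against 130 CPM. MT2A averaged 522, 477 and 224 CPM against 432 CPM, so Poria was below vehicle there. These differences were not tested.

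Library 3 at 20 µg/mL stood somewhat apart within its group. It was the highest of the 3 at 20 µg/mL for 60 of the 110 genes that fell and the lowest for 43 of the 86 that rose. Library 1 was the lowest for 68 of the 110 falls. Such orders were not counted over all genes tested. At 20 µg/mL the chi-square per degree of freedom was 13.6 between libraries 1 and 3, 8.52 between 2 and 3 and 4.75 between 1 and 2. The mitochondrial share of library 3, 8.59%, was the lowest of the 6 libraries, and its total of 26.2 M was close to that of library 1. Whether these move the calls was not tested. The calls of CYP1A1, HAMP, ID1, ID2, ID3, SMAD7, UGT1A1, AKR1B10, LSS, ACSS2 and the metallothioneins were also made without library 3. The log2 change of HAMP was then -2.76, that of ID1 -0.90 and that of CYP1A1 2.10.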

How the data were processed

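RNA of HepG2 cells was sequenced in 60 libraries. Reads were processed with FastQC 0.11.9, Trim Galore 0.6.5, STAR 2.7.3a and RSEM 1.3.3 on hg38, per the submitters' processing notes. The kit marks strand, per the labels' protocols, but the strand setting of the counting is not given in the sources used here. The deposited table holds RSEM expected counts for 60675 genes, of which 76.1% of the values above 0 are whole, and the authors' values were rounded to whole counts. The table has 270 columns, of which 60 match sample descriptions and 210 were not used. RSEM divides reads between similar sequences, so close copies such as the MT1, GSTA and UGT1A genes share counts. A symbol was matched to 42515 genes, while 0.432% of counts fell on unmatched ones. Gene coordinates are those of GENCODE v29 on GRCh38, and promoter sequences are RefSeq's on GRCh38.p14.

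The fit in edgeR 4.0.16 (with limma 3.58.1 under R 4.3.3) took all 60 libraries, a mean for each of the 20 groups, TMM factors (0.926 to 1.03) and filterByExpr (minimum count 10, minimum total 15), which left 16093 genes. Its residual degrees of freedom were 40, with 8.17 from the prior. Two-sided tests were adjusted by Benjamini-Hochberg over all genes tested at a threshold of 0.05. Changes of different extracts were compared as a difference of differences in the same fit. Fold changes used a prior count of 0.125, and the SE is the log2 change over the square root of F. Library totals ran from 20.9 M to 33.4 M. Replicate libraries of the groups used differed by more than counting noise (chi-square per degree of freedom 4.08 to 14.1), so none was treated as a duplicate. Same-numbered libraries of both angelica doses were not seen to deviate together, and no pairing was used. With 3 libraries per dose this cannot exclude a tie between them, and a fit with a replicate block called 326 genes in place of 196.

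Genes were named by a rule: the 12 largest rises and falls past the threshold with at least 5 CPM in 1 of both groups and no overlap between libraries, up to 4 members of smallest p from each of 44 lists, up to 5 genes in each direction for each difference between extracts, and a fixed set that includes CYP1A1, CYP3A4, IGFBP1 and HAMP. Some genes that the rule names are not reported here. The members, lists and rule were chosen with earlier results of these data known. Alternatives were DESeq2 size factors, the DESeq2 1.42.0 Wald test, other filters on low counts, fits of the compared groups alone, a replicate block, log dose as a regressor, and leaving out each library. Scripts ran in Python 3.11.15 with pandas 2.3.3 and matplotlib 3.10.9.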

Additional observations from a re-analysis of the deposited data

Results flagged for a closer look

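For 30 genes the change from 20 to 500 µg/mL differed between angelica and another extract by an edgeR test of the difference, at an adjusted p under 0.05, and they were the largest such differences in each direction among genes with at least 5 CPM in 1 of the groups. Values are the log2 change with angelica minus that with the other extract. Against peony the differences were 0.875 for ID3, 0.741 for GSTA1, 0.723 for GSTA2, 0.655 for THBS1, a matricellular protein, and 0.585 for KNG1, kininogen. On the other side they were -1.05 for the pseudogene NAIPP2, -0.969 for the stress protein NUPR1, -0.907 for SLC7A11, -0.891 for ASNS and -0.877 for JDP2. Of these 10 genes, ID3, GSTA1, GSTA2, NAIPP2 and JDP2 also passed with angelica alone. NUPR1, SLC7A11, ASNS and JDP2 belong to the ATF4 targets, and with peony their log2 changes were 0.67, 0.91, 0.77 and 0.45.

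Against licorice the differences were 2.12 for TUBB1, 1.89 for CA9, a hypoxia-inducible carbonic anhydrase, 1.47 for UNC93A, 1.42 for the pseudogene ACSL3P1 and 1.38 for PFKFB3, which raises glycolysis. They were -3.81 for HAMP, -3.06 for CYP1A1, -1.96 for SLC16A6, -1.60 for AKR1B10 and -1.55 for SOS1. TUBB1, CA9, ACSL3P1, PFKFB3 and SLC16A6 did not pass with angelica alone, where their log2 changes lay between -0.13 for CA9 and 0.09 for ACSL3P1, so these differences describe licorice more than angelica.

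Against Poria the differences were 1.91 for SLC23A1, a vitamin C transporter, 1.89 for UPK3A, 1.73 for GNMT, glycine N-methyltransferase, 1.68 for KNG1 and 1.58 for DTX4. They were -3.09 for LINC03033, -3.02 for IGFBP3, -2.80 for PLCH2, -2.72 for IGFBP1 and -2.68 for FOS. With angelica alone the edgeR adjusted p of these 10 genes ran from 0.0820 for IGFBP1 to 0.978 for IGFBP3, so the differences describe Poria more than angelica. The log2 changes with Poria ran from -1.81 for GNMT to 2.98 for IGFBP3. Poria and licorice libraries carry other set numbers than angelica, and the part of the set in these differences was not tested.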

How the results depend on the processing

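Of the 64 named genes past the threshold at 500 against 20 µg/mL, 25 passed under each of the 13 alternatives run, among them CYP1A1, HAMP, ID1, ID2, ID3, SMAD7, UGT1A1, AKR1B10, MT2A and ACSS2, and 37 passed without each library in turn. None of the 64 changed direction. The count of 196 genes was 315 with no filter, 326 with the replicate block, 95 in a regression on log dose and 47 with only the compared libraries, and 198, 229 and 249 with DESeq2 size factors, a mean of at least 1 CPM and the DESeq2 Wald test. Of the 47 genes, 44 were among the 196. Leaving out 1 library gave 112 to 217 genes, with 122 without library 2 and 124 without library 3 at 500 µg/mL, and 126 without library 2 and 112 without library 3 at 20 µg/mL.

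The 149 differences from peony became 230 with no filter, 277 with the replicate block, 25 with only the compared libraries, 226 with DESeq2 and 64 to 135 without 1 library, the lowest without library 3 of peony at 500 µg/mL. Leaving out 1 library gave 984 to 1297 differences from licorice and 4022 to 4374 from Poria. Against vehicle the 3914 genes at 20 µg/mL became 2143 with only the compared libraries and 1831 to 4063 without 1 library (1831 without library 3 at 20 µg/mL, 2557 without vehicle library 3), and the 3045 at 500 µg/mL became 1776 to 2594, the lowest without vehicle library 3. The share of genes with 100 µg/mL in between ran from 93.9% to 96.4%. The cause of these shifts was not tested beyond the fewer samples or genes in each fit.

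The replicate numbers were not shown to pair libraries: correlations of deviations of same-numbered libraries at both doses were -0.0826, 0.0215 and 0.0258, and not every library correlated best with its own number. With the replicate block all 196 genes remained among the 326.

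Among list counts, cholesterol synthesis genes that fell numbered 14, but 1 with only the compared libraries, 6 in the regression and 5 to 11 without 1 library. For fatty acid synthesis the 5 falls became 1, 2 and 2 to 4, for NRF2 targets the 9 rises became 3, 5 and 8, and for PXR and CAR targets the 5 rises became 3, 3 and 3 to 4. The 7 metallothionein and zinc response falls remained 7 without any 1 library and the 7 BMP-SMAD falls became 5 to 7.

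Directions reversed only for 11 genes that did not pass (24 values; lowest edgeR adjusted p with all libraries 0.895, and 0.888 for SLC7A11 without library 3 at 20 µg/mL). SLC16A6 was -0.00421 with a mean of at least 1 CPM, -0.00639 with no filter, -0.00116 with only the compared libraries, -0.00138 in the regression and -0.0452 to 0.0427 without 1 library. SLC7A11 was -0.000632 with no filter and -0.0721 to 0.0871 without 1 library. Without 1 library AHRR ran from -0.236 to 0.217, CYP3A4 from -0.49 to 0.289, TUBB1 from -0.0373 to 0.0114, FOS from -0.026 to 0.293, GNMT from -0.141 to 0.0141, IGFBP3 from -0.182 to 0.0781, and PFKFB3 from -0.0608 to 0.11. The PLCH2 log2 change 500 against 20 µg/mL ran from -0.433 to 0.0485 and the TXNIP log2 change 500 against 20 µg/mL from -0.0337 to 0.0215. Depth limits genes near 3 counts per library, such as CYP1A2 and CYP1B1, whose changes missed the threshold.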

Other observations

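A few genes of low level and without a list changed by 2-fold or more and were singled out after their values were seen. SLC5A11, a sodium-coupled inositol transporter, read 1.14, 1.45 and 1.298 CPM at 20 µg/mL and 2.91, 2.35 and 2.51 CPM at 500 µg/mL (log2 change 1.01 ± 0.21, SE; edgeR adjusted p = 0.00454). The non-coding LINC01123 read 0.494, 0.566 and 0.496 CPM at 20 µg/mL and 1.44, 1.03 and 1.09 CPM at 500 µg/mL (1.21 ± 0.29; edgeR adjusted p = 0.0174). In both genes the libraries of the doses did not overlap. The antisense gene IPO9-AS1 read 0.912, 0.530 and 0.802 CPM at 20 µg/mL, 0.679, 0.902 and 0.708 CPM at 100 µg/mL and 0.390, 0.124 and 0.404 CPM at 500 µg/mL (-1.22 ± 0.31; edgeR adjusted p = 0.032), and its level at 100 µg/mL was not below that at 20 µg/mL. RBM3, an RNA-binding protein known from mild cold, read 109.7, 105 and 103 CPM at 20 µg/mL, 117, 119 and 120.7 CPM at 100 µg/mL and 134, 129 and 129 CPM at 500 µg/mL (0.32 ± 0.05; edgeR adjusted p = 3.32e-05), with no overlap between the doses.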
